A study of Homo sapiens with 6 samples.

Results

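The genes described here are TXNIP, its arrestin-fold relative ARRDC4, the sugar sensors MLXIPL, MLX and MLXIP, and 5 genes of sugar metabolism, PKLR, GCKR, KHK, TKFC and GPD1. They were taken by symbol from a table of 60564 Ensembl gene rows, in which each of the 10 symbols matched 1 row, and all 10 were among the 22230 genes tested. The set was chosen by the CPM differences between these groups, led by the higher level of TXNIP, so the differences of its members between the groups are given as a description and are not used as evidence.

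The libraries came from HepG2, a human hepatoma line with many functions of liver cells, labelled wild type and grown in DMEM with fetal calf serum. The 3 formononetin libraries came from cells given formononetin, a plant isoflavone, for 72 h, with the dose labelled as 625 in a unit spelled μm. The 3 control libraries are labelled with DMEM only, with no solvent and no time given. The labels state neither the glucose content of the medium nor when it was last changed, and do not say whether replicates were separate cultures. A p-value here can thus reflect technical spread between libraries alone. All are from 1 cell line, and these are bulk libraries, in which fewer cells of a type and less RNA per cell cannot be told apart.

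The proteins MLXIP (MondoA) and MLXIPL (ChREBP) are transcription factors that pair with MLX, enter the nucleus when sugar phosphates accumulate and bind the carbohydrate response element, a pair of E-box-like hexamers set a fixed distance apart. TXNIP and ARRDC4 are classic targets of MondoA. The proteins they encode lower glucose uptake, and TXNIP also binds and inhibits thioredoxin. In liver, ChREBP drives genes that turn sugar into fat, among them PKLR.

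Promoter stretches of the arrestin-fold genes are shown because these genes had the largest log2 fold changes of the set. They were read from RefSeq (GRCh38.p14), 5′ to 3′ on the gene's strand, and end before the gene start of both RefSeq and GENCODE 29. The TXNIP stretch is chr1:145996601-145996829 (minus strand), where capitals mark CCAAT on either strand and the carbohydrate response element. The ARRDC4 stretch is chr15:97960453-97960697 (plus strand), where capitals mark CACGTG and CCAAT on either strand.
TXNIP: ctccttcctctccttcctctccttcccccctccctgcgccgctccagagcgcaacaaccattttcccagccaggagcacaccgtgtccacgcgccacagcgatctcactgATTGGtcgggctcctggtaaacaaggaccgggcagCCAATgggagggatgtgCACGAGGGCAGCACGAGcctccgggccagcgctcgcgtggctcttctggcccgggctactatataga
ARRDC4: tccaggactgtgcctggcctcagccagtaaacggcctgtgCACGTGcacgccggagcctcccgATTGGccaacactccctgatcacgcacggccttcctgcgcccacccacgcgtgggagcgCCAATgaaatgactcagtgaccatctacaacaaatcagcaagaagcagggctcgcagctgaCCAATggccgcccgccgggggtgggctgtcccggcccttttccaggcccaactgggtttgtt

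The element was searched as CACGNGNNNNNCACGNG on both strands of RefSeq windows that run from 250 bases before to 50 bases after a gene start. It matched 20 of 35116 windows, or 0.0570%. RefSeq gives TXNIP 2 windows, with starts at 145996579 and 145995744. The first of them held the element once, as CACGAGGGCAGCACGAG, with its first base 88 bases before that start. The second, at the inner start, held none of the motifs searched. The ARRDC4 window held no match to it but held CACGTG once, with its first base 210 bases before the start. CACGTG, whose letters can also fall within the longer element, was present in 7.26% of all windows, among them 1 each of MLX and PKLR. CCAAT, the letters bound by the factor NF-Y, occurred 2 times in the first TXNIP window and 3 times in that of ARRDC4, and 34.6% of all windows held it. GCGTG, the core recognised by the aryl hydrocarbon receptor, occurred 2 times in the first TXNIP window and 4 times for ARRDC4, against a presence in 36.5% of windows. These GCGTG matches lay outside the capitals of the printed stretches, and 2 of those of ARRDC4 overlapped each other. TGACNNNGC, the core of the antioxidant response element, was in no window of TXNIP or ARRDC4. It was in those of MLX and GCKR and in 13.3% of all windows. Windows were at hand for 8 of the 10 genes, and those of KHK and GPD1 were not used. These matches describe letters only.

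Transcript of TXNIP (ENSG00000265972, chromosome 1, 145992435 to 145996600, GRCh38, 5 merged exons) was scarce in control libraries, at 2.27, 2.40 and 2.27 CPM (counts per 1000000 of the scaled library total) in replicates 1 to 3. It stood at 39.5, 42.1 and 40.9 CPM with formononetin. Every formononetin library lay far above every control library, and the lowest of them was 16.5 times the highest control. The control values rest on 69, 86 and 77 counts, with exact Poisson 95% intervals from 1.77 to 2.97 CPM that cover counting error only. The ratio of means was 17.6, the log2 fold change was 4.14 ± 0.08 (standard error, n = 3 per group), and 8 of the 22230 tested genes had a larger one.

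ARRDC4, a scaffold of ubiquitin ligases (ENSG00000140450, chromosome 15, 97960698 to 97973838, 8 merged exons), was the least abundant gene of the set. Its levels were 0.888, 1.01 and 0.678 CPM in control and 3.13, 3.17 and 2.83 CPM in formononetin libraries, from 23 to 36 and 121 to 128 counts. The groups did not overlap, and the log2 fold change was 1.82 ± 0.19. The highest control library, with a Poisson 95% interval of 0.704 to 1.39 CPM, remained below the lowest formononetin library, with 2.36 to 3.36 CPM.

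**Figure D1:**
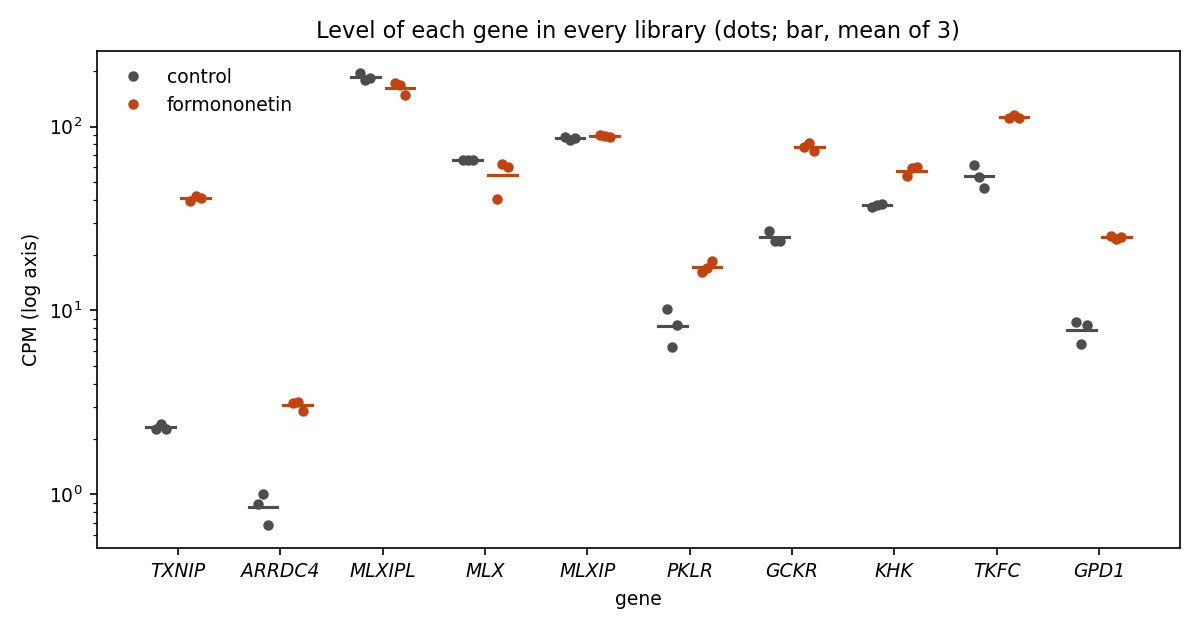
CPM on a log axis for the 10 genes, 1 dot per library with a bar at the mean of 3, control in grey and formononetin in orange. The dots of TXNIP move from about 2.27 to about 40.9 CPM, while those of MLXIP lie side by side and 1 formononetin library of MLX lies below the rest.

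None of the 3 sensors was called higher. MLXIPL, or ChREBP (ENSG00000009950, chromosome 7, 73593194 to 73624543), was at 195, 178 and 183 CPM in control and 172, 168 and 149 CPM in formononetin libraries. All formononetin libraries were thus lower, by a narrow margin, with a log2 fold change of -0.19 ± 0.07 that missed the threshold over all genes and passed it under upper quartile scaling (-0.27). MLXIP, or MondoA (ENSG00000175727, chromosome 12, 122078722 to 122147347), was at 87.6, 84.8 and 86.4 CPM in control and 89.9, 88.7 and 87.6 CPM in formononetin libraries. The groups met at 87.6 CPM, where they overlapped narrowly under TMM scaling, and formononetin libraries lay wholly above control in 12 of 17 alternatives. These alternatives were not independent. Some shared the same scaled CPM, and the 12 took in every run that left out a library, where groups separate more easily. The log2 fold change of 0.04 ± 0.04 turned to -0.04 under upper quartile scaling.

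MLX, the shared partner of both factors (ENSG00000108788, chromosome 17, 42567068 to 42573239), was at 65.5, 65.7 and 65.8 CPM in control libraries. With formononetin it was at 40.3, 62.6 and 60.3 CPM, so that replicate 1 stood well below the other libraries. The log2 fold change was -0.27 ± 0.15, was not called, and was -0.10 without formononetin replicate 1. PSMC3IP, which overlaps the exons of MLX by 770 bases on the opposite strand, was at 7.39, 6.90 and 8.35 CPM in the formononetin libraries. It showed no such low value in replicate 1, though whether counting used the strand is not given in the sources used here.

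The sugar metabolism genes of this set were all higher with formononetin. GPD1, the cytosolic enzyme that makes glycerol 3-phosphate for triglycerides (ENSG00000167588, chromosome 12, 50103819 to 50111319), was at 8.62, 6.59 and 8.29 CPM in control and 25.4, 24.3 and 25.0 CPM in formononetin libraries. Its log2 fold change was 1.67 ± 0.11, and the lowest formononetin library was 2.82 times the highest control. GCKR, a regulator of hepatic sugar phosphorylation (ENSG00000084734, chromosome 2, 27496842 to 27523684), was at 27.1, 23.8 and 24.0 CPM in control and 77.1, 81.1 and 73.3 CPM in formononetin libraries. The lowest formononetin library was 2.70 times the highest control, and the log2 fold change was 1.63 ± 0.07.

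The genes of fructose breakdown in this set and PKLR were higher as well. KHK, the kinase that phosphorylates fructose (ENSG00000138030, chromosome 2, 27086747 to 27100772), was at 36.5, 37.6 and 37.9 CPM in control and 53.5, 59.5 and 59.9 CPM in formononetin libraries. The libraries of each group were close together and the groups were apart, with a log2 fold change of 0.63 ± 0.06, the smallest of the 7 raised genes. TKFC, which phosphorylates the glyceraldehyde that fructose breakdown yields (ENSG00000149476, chromosome 11, 61333210 to 61353295), was at 62.0, 52.9 and 46.4 CPM in control and 112, 116 and 112 CPM in formononetin libraries (log2 fold change 1.07 ± 0.10). Its control libraries spread more than its formononetin libraries, and the groups did not overlap. PKLR, the pyruvate kinase of liver and red cells (ENSG00000143627, chromosome 1, 155289293 to 155301438), was at 10.2, 6.34 and 8.29 CPM in control and 16.1, 16.9 and 18.5 CPM in formononetin libraries. Control replicate 1 was the highest control and was still below every formononetin library, and the log2 fold change was 1.06 ± 0.17.

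KHK, PKLR and TKFC share exon bases with genes on the opposite strand, so their reads are uncertain where strand was ignored. Those neighbours had smaller log2 fold changes, -0.23 ± 0.12 for CGREF1 beside KHK, 0.31 ± 0.16 for HCN3 beside PKLR, and 0.11 ± 0.05 for DDB1 and 0.12 ± 0.09 for CYB561A3 beside TKFC. None of them was called (edgeR adjusted p from 0.152 to 0.401). A gene model of unknown kind overlaps TKFC by 436 bases on the same strand, and the summed pair had a log2 fold change of 1.04.

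Of the 10 genes, 7 were higher and none was lower at an adjusted p under 0.05 in the edgeR quasi-likelihood fit over all genes, where 12.0% of tested genes were higher and 8.71% lower (2659 and 1937 genes, or 1813 and 2737 under upper quartile scaling). Since the same contrast guided the choice of genes, nothing is read from that share. Their median log2 fold change was 1.06, against -0.01 over all tested genes. Formononetin libraries lay wholly above control libraries for 7 genes and wholly below for MLXIPL and MLX, where 20.8% and 18.7% of tested genes did so and 39.4% did either. These 7 were called in each of 17 alternative analyses.

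**Figure D2:**
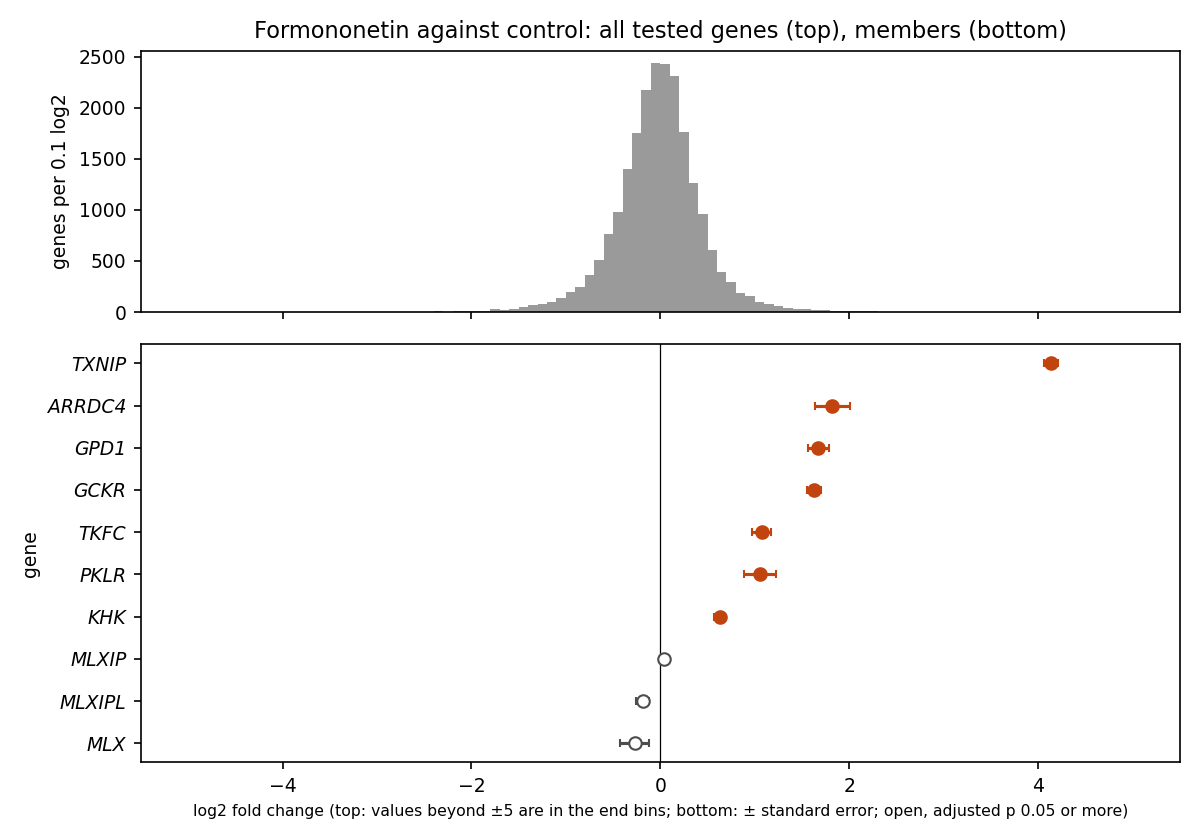
Top, histogram of the log2 fold change (formononetin against control) of all tested genes in steps of 0.1; bottom, the 10 genes with their standard errors, filled where the adjusted p was under 0.05. TXNIP at 4.14 lies in the far right tail, 6 genes lie between 0.63 and 1.82, and MLXIP, MLXIPL and MLX lie close to 0.

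To compare genes, levels were set per kilobase of merged exons. That length takes in all annotated exons, from 3060 bases for KHK to 13905 for MLXIP, and not those of the transcripts expressed. The order thus depends on the annotation. In control libraries it began with MLXIPL at 38.5 ± 1.77 CPM per kb (SD, n = 3), MLX at 15.4 ± 0.0306 and KHK at 12.2 ± 0.247. GCKR (7.94 ± 0.588), TKFC (6.61 ± 0.962) and MLXIP (6.21 ± 0.102) followed, and TKFC overlapped both of its neighbours in range. PKLR (2.61 ± 0.604) and GPD1 (1.96 ± 0.272) overlapped as well. TXNIP (0.639 ± 0.0210) and ARRDC4 (0.211 ± 0.0407) came last and apart from the others and from each other.

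With formononetin MLXIPL was again first, at 33.8 ± 2.56 CPM per kb. GCKR was now second at 24.5 ± 1.25, and KHK followed at 18.8 ± 1.16 and TKFC at 13.9 ± 0.276. TXNIP stood at 11.3 ± 0.352, within the range of MLX (12.8 ± 2.87), which also took in TKFC. MLXIP (6.38 ± 0.0818) and GPD1 (6.25 ± 0.140) overlapped, PKLR was at 5.42 ± 0.380, and ARRDC4 was again last at 0.747 ± 0.0462. On this scale TXNIP thus passed GPD1, PKLR and MLXIP, while ARRDC4 kept its place. In CPM without the length, TXNIP stayed below MLXIP (means of 40.8 and 88.8 with formononetin).

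**Figure D3:**
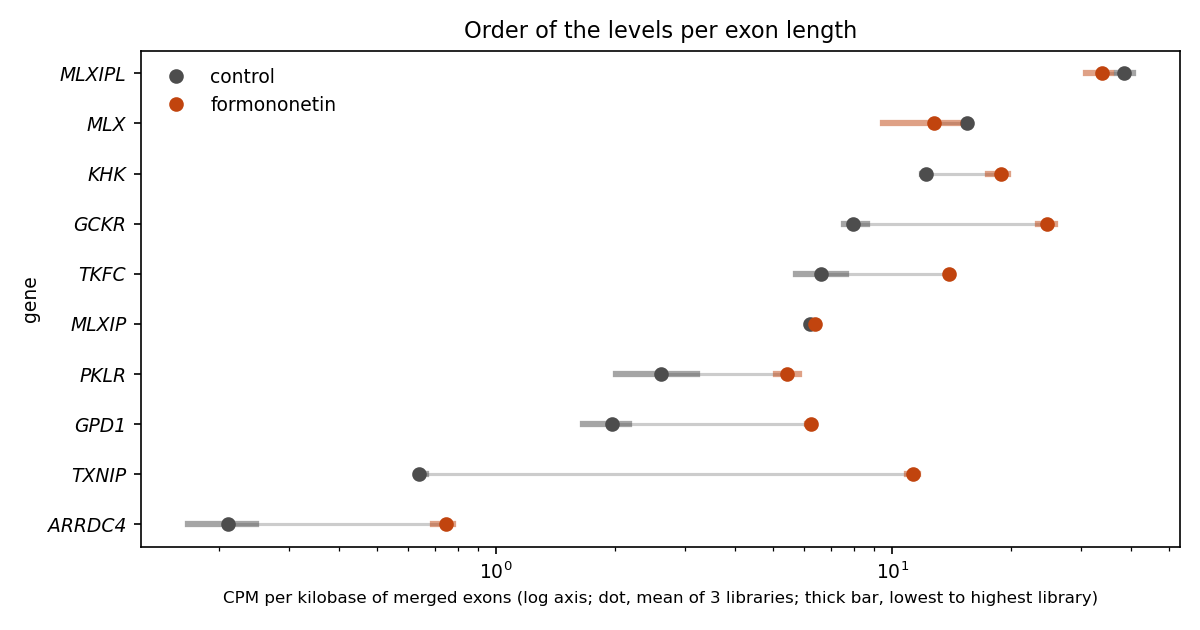
CPM per kilobase of merged exons on a log axis, dots at the mean of 3 libraries and thick bars from the lowest to the highest, genes sorted by control level. The line of TXNIP is the longest, from 0.639 to 11.3, and those of MLXIPL, MLX and MLXIP are short.

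The tested genes whose values over the 6 libraries were nearest to those of TXNIP were UGT1A1, PTGR1 and AKR1B10. Nearness was the root mean square difference of log2 CPM from the control mean, among the 10321 genes outside the set whose log2 CPM averaged 3 or more. Genes with no symbol or with clone, LINC, antisense or other hyphenated names were passed over. UGT1A1, which conjugates bilirubin and shares its last exons with other UGT1A genes, differed by 0.19. PTGR1 and AKR1B10, both reductases of reactive carbonyls, differed by 1.21 and 1.35, so that UGT1A1 alone of the genes kept was close. Nearest to ARRDC4 were SOS1, an activator of RAS (0.13), SLC5A11, a sodium-coupled inositol transporter (0.18), and MT1G, a metallothionein from a family of similar genes (0.20). Their log2 fold changes were 1.77, 1.87 and 1.73. A choice by this distance favours genes with a log2 fold change like that of the member, so nothing is read from that likeness.

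A further list held 21 other genes described as targets of MondoA or ChREBP. Of the 18 that were tested, 11 (61.1%) were higher and none was lower, with a median log2 fold change of 0.38. Over all tested genes 12.0% were higher and 8.71% lower, with a median of -0.01. This list was written with the rise of lipid synthesis genes in these libraries known. SCD, the stearoyl-CoA desaturase, had the largest log2 fold change of its called genes, 1.14 ± 0.06. KLF10, a sugar-induced repressor, was at 27.8, 27.8 and 27.5 CPM in control and 45.3, 50.2 and 45.6 CPM in formononetin libraries (0.76 ± 0.06, edgeR adjusted p = 0.000423). ACLY, which supplies acetyl-CoA for fat, changed by 0.70 ± 0.06 (edgeR adjusted p = 0.000532).

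The list was not uniform. G6PC1, the glucose 6-phosphatase, stood at 1.04 ± 0.289 CPM in control libraries and 2.15 ± 0.441 CPM with formononetin (n = 3; log2 fold change 1.05 ± 0.26, edgeR adjusted p = 0.0305). Its call was lost without control replicate 1 or 2, without formononetin replicate 1 or 2 and with a replicate block (adjusted p up to 0.0945). The glucose transporter SLC2A2 was not called (-0.16 ± 0.11, with -0.08 without control replicate 2 and -0.10 without formononetin replicate 2). ME1 and RGS16 had 0 counts in all 6 libraries, where 3 counts would be 0.0662 to 0.0987 CPM. The table also holds 2165 assembled loci with no gene name, and whether any of them holds reads of a gene listed at 0 was not tested.

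**Figure D4:**
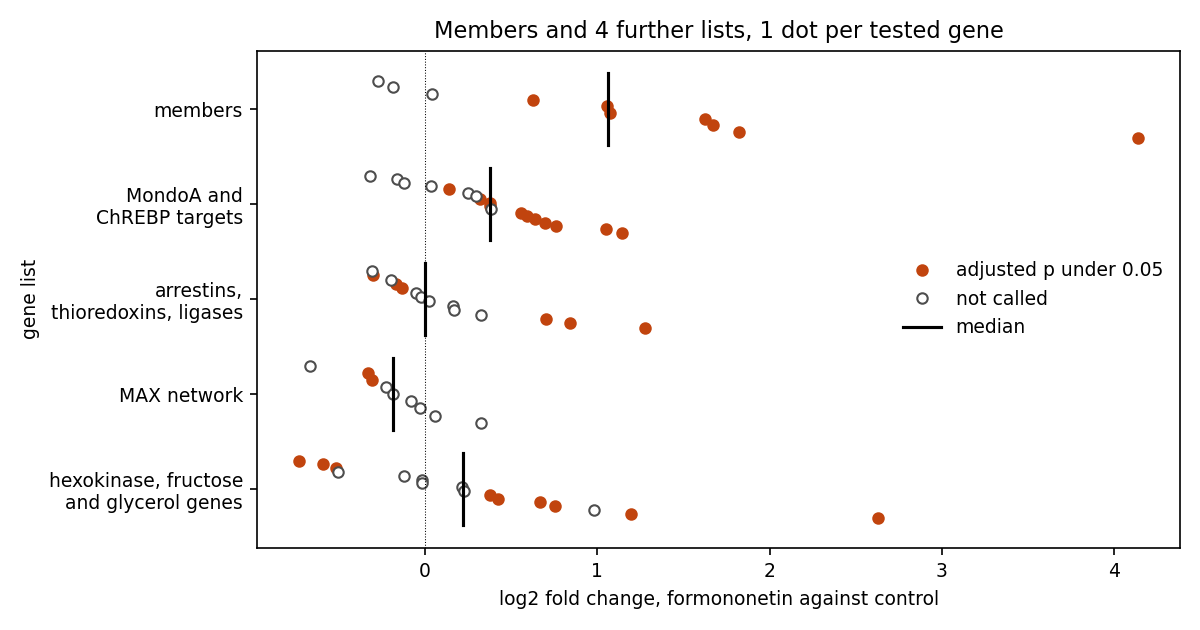
Log2 fold change (formononetin against control) of each tested gene in the set and in 4 further lists, filled where the adjusted p was under 0.05, with a bar at the median. The called members and the called MondoA and ChREBP targets lie to the right of 0, and the called MAX network genes to the left. The arrestin and hexokinase lists hold called genes on both sides.

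Of 14 tested genes for other arrestins, thioredoxins and ubiquitin ligases of the NEDD4 type, 3 (21.4%) were higher and 3 (21.4%) lower, against 12.0% and 8.71% of all tested genes (median log2 fold change 0.00, against -0.01). Thioredoxin itself, TXN, the protein that TXNIP inhibits, was at 159, 174 and 165 CPM in control and 271, 259 and 280 CPM with formononetin, a log2 fold change of 0.70 ± 0.05 (edgeR adjusted p = 0.000295). The reductase TXNRD1, which recharges it, changed by 1.28 ± 0.13 (edgeR adjusted p = 0.000805). Among the other α-arrestins ARRDC3 was higher (0.84 ± 0.16, edgeR adjusted p = 0.0102), while ARRDC1 and ARRDC2 were not called. ITCH, the ligase that marks TXNIP for degradation, was at 204, 217 and 209 CPM in control and 165, 181 and 164 CPM with formononetin, a log2 fold change of -0.30 ± 0.05 (edgeR adjusted p = 0.00701). The arrestin ARRB1 and the ligase NEDD4L, the latter named after its values were seen, were lower by small amounts (-0.17 ± 0.04 and -0.13 ± 0.04). The call of ARRB1 was lost without any 1 of the 6 libraries (adjusted p up to 0.0953). That of NEDD4L was lost without any 1 library other than control replicate 1 and by DESeq2 (adjusted p up to 0.144 over all settings). Both calls also ended with a replicate block, with library total scaling and with no low-count filter.

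In the network of MAX, the bHLHZip protein that pairs with MYC and MXD factors as MLX does with the Mondo proteins, 2 of 9 tested genes (22.2%) were lower and none was higher, where 8.71% and 12.0% of all tested genes were (median log2 fold change -0.18, against -0.01). MNT, a repressor that can pair with MLX, was at 44.4, 46.2 and 49.9 CPM in control and 36.5, 37.5 and 37.4 CPM in formononetin libraries (-0.33 ± 0.06, edgeR adjusted p = 0.00919). MXD4, a repressor of the same family, changed by -0.31 ± 0.07 (edgeR adjusted p = 0.0182), a call that ended on leaving out control replicate 3 or either of formononetin replicates 1 and 2 (adjusted p no higher than 0.0670). MAX and MYC were not called (-0.03 ± 0.10 and 0.33 ± 0.19), and MYC moved to 0.07 when formononetin replicate 3 was left out and to 0.50 when formononetin replicate 1 was. MAX changed sign without control replicate 2 (0.05) or formononetin replicate 2 (0.03) and under library total scaling (0.01).

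Of 16 tested genes for hexokinases, pyruvate kinase M, polyol, fructose and glycerol handling, 6 (37.5%) were higher and 3 (18.8%) lower, beside 12.0% and 8.71% of all tested genes (median log2 fold change 0.22, against -0.01). AQP3, a channel for water and glycerol, was at 1.84, 2.21 and 1.83 CPM in control and 12.7, 10.7 and 13.0 CPM with formononetin, a log2 fold change of 2.63 ± 0.14 (edgeR adjusted p = 9.14e-05). HKDC1, a hexokinase-like gene of liver tumours, changed by 1.20 ± 0.09 (edgeR adjusted p = 0.000283). HK2, the hexokinase of tumour cells, went the other way, with 690, 726 and 748 CPM in control and 462, 427 and 417 CPM in formononetin libraries (-0.73 ± 0.05, edgeR adjusted p = 0.000295). SLC2A3, a glucose transporter, and the glycerol kinase GK, named after its values were seen, were the other lowered genes (-0.59 ± 0.07 and -0.52 ± 0.05). PKM changed by 0.38 ± 0.05, less than PKLR in size, a difference between the genes that was not tested. PFKFB1, of the bifunctional enzyme that sets fructose 2,6-bisphosphate, changed by 0.75 ± 0.22, a call lost without any library other than control replicate 2 (adjusted p up to 0.127), without which it was 1.04, and under 3 other settings.

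Counts on Ensembl rows ran from 30848848 to 36243606 in control and from 37465148 to 45682722 in formononetin libraries, so depth differed between the groups, and its part in the results was not tested beyond the scalings tried. Summed hepatocyte markers such as ALB and APOA1 stood at 39516 to 40824 CPM in control and 33910 to 35214 CPM in formononetin libraries, and all 8 were detected. The 4 leukocyte markers summed to 2.92 to 4.19 and 5.68 to 8.23 CPM, with PTPRC and CD3E at 0 counts, and the 4 fibroblast markers to 12.9 to 15.1 and 3.82 to 4.59 CPM, with COL3A1 and DCN at 0 counts. The 3 endothelial markers summed to 22.1 to 25.6 and 24.0 to 28.2 CPM, and INS was at 0 counts. The part of these markers in the results was not tested.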

How the data were processed

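RNA sequencing measured transcripts in 3 control and 3 formononetin libraries of HepG2, made with a stranded mRNA kit, per the labels' protocols. The deposited values are raw counts per gene, whole numbers made by the authors. The submitters' processing notes name GRCh38, STAR 2.5.3a and StringTie 1.3.1c with no role. How reads were counted, with which strand setting and annotation, is not given in the sources used here. Of 62729 rows, 2165 assembled loci without a gene name held 3.82 to 5.62% of counts per library and were left out, except in 1 alternative. A gene name table gave symbols, and GENCODE 29 gave coordinates and exon lengths.

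Genes were filtered with filterByExpr, libraries scaled with TMM, and groups compared with the quasi-likelihood test of edgeR 4.0.16 in R 4.3.3 (group as the only term, two-sided, Benjamini-Hochberg over 22230 genes, threshold 0.05), checked on simulated counts. Standard errors were derived from log2 fold change and F. No set test was run.

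The members and lists were chosen with earlier results of these data known. Named from each list were up to 3 called genes with the largest change in its main direction and up to 2 in the other (mean log2 CPM of 1 or more), the genes nearest to TXNIP and ARRDC4, and PKM, TXN, MAX, MYC, SLC2A2 and G6PC1. Some genes of the lists enter the counts and are not reported here by name. Genes outside this rule are marked, and genome neighbours, genes at 0 counts, uncalled arrestins and genes with the promoter element were named after their values were seen. Alternatives were other scalings and filters, DESeq2 1.42.0, voom of limma 3.58.1, a replicate block, assembled loci, summed overlapping genes and leaving out each library. Replicate counts differed by more than sampling noise (chi-square per degree of freedom 10.4 to 26.3). Figures were drawn with matplotlib 3.10.9.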

Additional observations from a re-analysis of the deposited data

How the results depend on the processing

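Over 17 alternatives the count of raised members was 7 throughout, and the log2 fold change of TXNIP ran from 4.06 to 4.18, that of ARRDC4 from 1.68 to 1.96 and that of KHK, the smallest among the raised members, from 0.55 to 0.67. Under upper quartile scaling 1 member was called lower, MLXIPL (-0.27), and MLXIP turned to -0.0384. Under library total scaling 1 member in place of 2 lay wholly lower. MLXIP joined the 7 members that lay wholly higher in 12 of 17 alternatives, among them every run that left out a library. Some alternatives shared the same scaled CPM, so they were not independent checks of this. Lowered arrestin, thioredoxin and ligase genes numbered 1 under library total scaling, with no low-count filter and with the replicate block, and 1 to 2 on leaving out a library. Lowered MAX network genes numbered 1 to 2 on leaving out a library. Over all genes, leaving out a library gave 1703 to 2189 raised (fewest without formononetin replicate 3) and 1272 to 1478 lowered (fewest without control replicate 3). Outside the members, leaving out a library moved MAX from -0.102 to 0.0535 (above 0 without control replicate 2 or formononetin replicate 2), and MAX was 0.0106 under library total scaling. The causes were not tested.

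Labels give replicate numbers in both groups but no shared batch. Deviations of same-numbered libraries from their group means correlated at -0.0021, 0.0092 and -0.0218 across genes, so the numbers are not taken as pairs. With the replicate block 7 members were called higher and 0 lower, and the log2 fold change of TXNIP was 4.14. With 3 libraries per group small differences of low genes are poorly resolved, and intervals cover counting error only.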

Other observations

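The promoter element was also used to draw a list by sequence alone, after the data were seen. The 20 RefSeq windows with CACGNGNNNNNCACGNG belonged to 20 genes, of which 16 were tested. Besides TXNIP, 3 of the other 15 were higher and none was lower, where 12.0% and 8.71% of all tested genes were. The median log2 fold change of these 15 was 0.08, against -0.01 over all tested genes. KCTD5, an adaptor of ubiquitin ligases, changed by 0.34 ± 0.06 (edgeR adjusted p = 0.00986). MTHFS, of folate metabolism, stood at 10.1 ± 0.233 CPM in control libraries and 13.3 ± 0.709 CPM with formononetin (n = 3; 0.40 ± 0.09, edgeR adjusted p = 0.0162), a call that ended on leaving out control replicate 2 or either of formononetin replicates 1 and 3 (adjusted p no higher than 0.0627). RAN, the GTPase of nuclear transport, changed by 0.34 ± 0.08 (edgeR adjusted p = 0.0267), a call lost without control replicate 3 or any 1 formononetin library (adjusted p up to 0.0838) and under upper quartile scaling. GFPT1, which opens the hexosamine pathway, had a log2 fold change of -0.02 ± 0.20 and was not called. TXNIP, at 4.14, lay far above every other gene of this list, the next being TIGD1 at 0.72 ± 0.54, which was not called.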
